A study of Mus musculus with 2 samples.

Results

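The genes described here are 10 genes whose products are known as components or regulators of Bruch's membrane, namely Col8a1, Col8a2, Col4a3, Col4a4, Col4a5, Col18a1, Timp3, Efemp1, Fbln1 and Htra1. The rule that chose them names symbols and uses no measured value, and each symbol matched a single row among the 27998 genes of the deposited matrices. Their messages were measured in retinal pigment epithelium (RPE) cells from 2 untreated male C57BL/6J mice, R1 and R2, which the study's methods place at postnatal day 36 and the sample labels at 4 to 5 weeks. The eyes of each mouse were processed together, and single cells were sorted as DAPI-negative and calcein-AM-positive, and captured in droplets with 10x Genomics reagents, for which the labels name the v3 chemistry and the study's methods another version. A unique molecular identifier (UMI) marks each captured 3′ end, so that the values count molecules and not amplified copies. There was a single condition, so the comparison was made between cells of the same mouse, split by the share of their UMIs that came from Ttr, the transthyretin gene that RPE cells express at a very high level.

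Bruch's membrane is the thin sheet of extracellular matrix between the RPE and the choroidal capillaries. The basement membrane of the RPE forms its inner face, and elastic and collagenous layers lie beneath. Collagen VIII builds open networks, collagen IV and collagen XVIII are basement membrane collagens, and the fibulins, among them the products of Efemp1 and Fbln1, bind elastic fibres and basement membrane proteins. Timp3 encodes a metalloproteinase inhibitor that stays bound to the matrix, and Htra1 a secreted serine protease. Mutations of TIMP3 and of EFEMP1 cause inherited macular dystrophies in which material collects at this membrane.

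After removal of low-quality cells and likely doublets, 2671 cells of R1 and 2847 of R2 remained. Cells with Ttr at 5% or more of their UMIs, called Ttr-high here, numbered 2612 in R1 and 2828 in R2, and cells with Ttr under 3%, called Ttr-low, numbered 59 and 19, with no cell between these limits. The median Ttr-high cell held 8433 UMIs in R1 and 7687 in R2, and the median Ttr-low cell 3200 and 3836. All 8 RPE markers (Rpe65, Rlbp1, Rgr, Lrat, Best1, Rdh5, Stra6, Rrh) were found in Ttr-high cells of both mice, where together they made 400.3 and 449.2 UMIs per 10000, so the label of RPE held for that class, although Best1 was close to 0 with 7 and 11 UMIs. In the Ttr-low class the same markers made 35.3 and 24.4 UMIs per 10000. Most Ttr-low cells, 51 of 59 and 16 of 19, held at least 2 UMIs of Pax6 and Dkk3, and 3 and 2 others held 2 or more fibroblast markers, 2 and 1 others microglia markers. Cell barcodes that occurred in both mice numbered 12.

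The sequence next to the start is shown for members at the extremes of the results, with 1 stretch shared by Col4a3 and Col4a4. Timp3, Col8a2, Col8a1, Col4a3 and Col4a4 were lower in Ttr-low cells, while Fbln1 and Efemp1 were higher. Bases are from RefSeq on GRCm38.p6, 5′ to 3′ in the direction of the named gene, and end where the GENCODE vM21 gene begins. Capitals mark GC boxes (GGGCGG or CCGCCC, overlaps included), except for the single CACGTG of Fbln1, an E-box. The stretches are chr4:126286544-126286792 on the plus strand for Col8a2, chr16:57754738-57754987 on the minus strand for Col8a1, chr10:86300162-86300371 on the plus strand for Timp3, chr15:85205699-85205948 on the plus strand for Fbln1 and chr11:28852955-28853203 on the plus strand for Efemp1. Col4a4 and Col4a3 are transcribed away from each other, and chr1:82586850-82586920, shown on the minus strand, is all that separates them.
Col8a2: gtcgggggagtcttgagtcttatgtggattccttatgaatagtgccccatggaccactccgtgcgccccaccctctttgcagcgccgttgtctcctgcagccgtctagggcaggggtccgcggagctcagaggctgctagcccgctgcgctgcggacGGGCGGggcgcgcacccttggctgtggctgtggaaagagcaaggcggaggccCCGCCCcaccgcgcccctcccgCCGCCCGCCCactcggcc
Col8a1: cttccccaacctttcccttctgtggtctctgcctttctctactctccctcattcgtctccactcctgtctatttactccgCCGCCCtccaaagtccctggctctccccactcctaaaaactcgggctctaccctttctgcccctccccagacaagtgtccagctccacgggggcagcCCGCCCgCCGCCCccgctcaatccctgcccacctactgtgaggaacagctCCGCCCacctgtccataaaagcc
Timp3: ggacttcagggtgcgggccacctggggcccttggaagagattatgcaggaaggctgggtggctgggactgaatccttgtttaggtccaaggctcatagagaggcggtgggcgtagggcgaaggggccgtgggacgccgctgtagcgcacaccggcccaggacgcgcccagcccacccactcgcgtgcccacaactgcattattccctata
Col4a4: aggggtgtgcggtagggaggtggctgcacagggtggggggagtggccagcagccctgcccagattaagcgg
Fbln1: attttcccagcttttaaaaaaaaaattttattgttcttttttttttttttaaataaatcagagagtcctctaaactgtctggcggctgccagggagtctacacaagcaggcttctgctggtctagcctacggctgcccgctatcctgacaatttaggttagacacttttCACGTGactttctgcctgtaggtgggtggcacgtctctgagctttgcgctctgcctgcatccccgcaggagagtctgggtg
Efemp1: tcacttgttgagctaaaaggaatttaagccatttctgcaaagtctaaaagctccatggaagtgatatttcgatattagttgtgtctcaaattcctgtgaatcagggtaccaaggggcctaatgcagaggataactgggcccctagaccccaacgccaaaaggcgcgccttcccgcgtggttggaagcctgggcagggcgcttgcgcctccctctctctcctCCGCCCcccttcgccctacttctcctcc
Col8a2 and Col8a1 each held 4 GC boxes, Efemp1 held 1, and the stretches of Timp3, Col4a4 and Fbln1 held none. A GC box was found in 32.7% of 32851 promoters of the RefSeq table within 250 bases before the start, and the E-box in 6.02%. The stretches shown differ in length, with 71 bases for Col4a4 and 210 for Timp3, so a lack of matches there is not compared at like length. The core TAATCC or GGATTA, which OTX2 and CRX are known to bind, was in 6.25% of all promoters and in none of the stretches shown. The bases between Col4a4 and Col4a3 numbered 71, of which 69.0% were G or C, against 69.9% for Col8a2 and 46.4% for Fbln1. These matches describe letters only.

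The members differed widely in level in Ttr-high cells, and their order was nearly the same in both mice. Levels are given as UMIs per 10000 UMIs over all cells of a class, with exact 95% Poisson intervals that cover counting error only. Since reads mark 3′ ends, levels were not divided by transcript length, and capture may differ between genes.

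Timp3 (chr10:86300372-86349506) had the highest level, 30.1 (29.8 to 30.3) in R1 and 28.5 (28.3 to 28.7) in R2, which placed it at rank 24 and rank 25 among all genes with a UMI. It was found in 2604 of 2612 and 2817 of 2828 cells. The collagen VIII genes followed, with Col8a2 (chr4:126286793-126314330) at 9.86 in R1 and 8.68 in R2, and Col8a1 (chr16:57624258-57754737) at 5.58 and 4.71. Both were among the 228 most abundant genes of each mouse. Col8a2 was found in 96.9% and 93.5% of cells and Col8a1 in 89.7% and 80.7%.

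The basement membrane collagens were lower. Col18a1 (chr10:77052178-77166548) stood at 1.78 in R1 and 1.37 in R2. Col4a4 (chr1:82448423-82586849) and Col4a3 (chr1:82586921-82722059), which encode chains of the same collagen IV network, were nearly equal in R1 at 1.10 (1.05 to 1.14) and 1.10 (1.06 to 1.15). In R2 they stood at 0.912 (0.876 to 0.948) and 0.811 (0.777 to 0.846), and these intervals did not overlap. Their partner chain Col4a5 (chrX:141475385-141689234) was far lower, with 0.0719 (0.0616 to 0.0836) and 0.0551 (0.0466 to 0.0647).

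The remaining members were scarce in Ttr-high cells. Htra1 (chr7:130936111-130985660) had 0.261 UMIs per 10000 in R1 and 0.316 in R2 and was found in 16.2% and 17.8% of cells. Efemp1 (chr11:28853204-28926743) had 0.0341 and 0.0238, and Fbln1 (chr15:85205949-85286535) 0.00883 and 0.0130. Fbln1 was found in 18 of 2612 and 25 of 2828 cells, a share at which expression and free RNA in the droplets cannot be told apart. Summed over the 10 members, the level was 49.8 in R1 and 45.4 in R2. R1 was above R2 for 8 members, by 1.06 times for Timp3 to 1.43 times for Efemp1, and below it for Htra1 (0.827 times) and Fbln1 (0.678 times, 0.375 to 1.198). Only the interval of Fbln1 included equality, but with 2 mice these differences are a description.

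**Figure D1:**
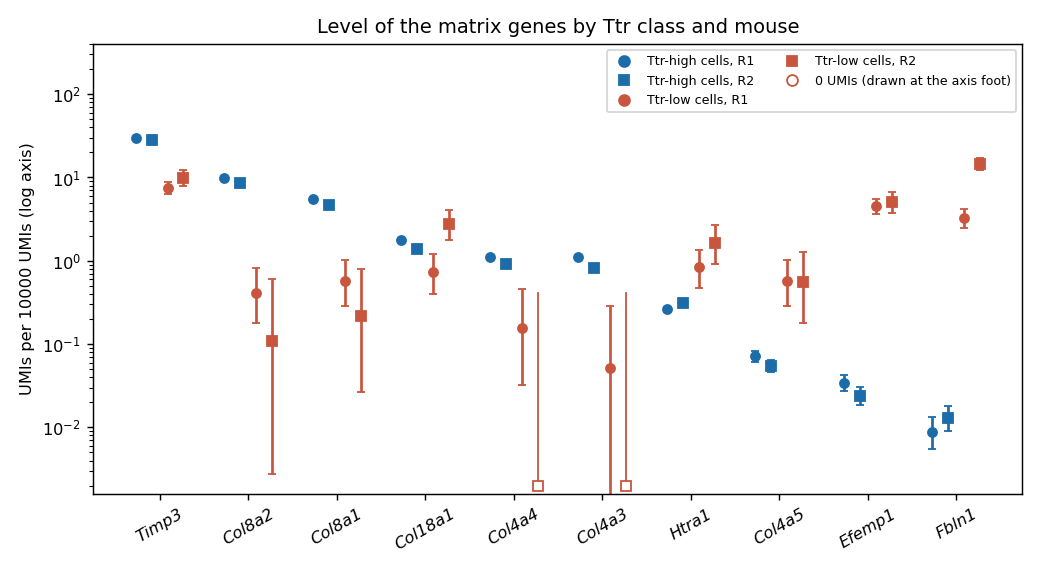
UMIs per 10000 UMIs (vertical log axis) of each member (horizontal axis) in Ttr-high (blue) and Ttr-low (red) cells of R1 (circles) and R2 (squares), with exact 95% Poisson intervals; open symbols mark 0 UMIs. Timp3, Col8a2, Col8a1, Col4a4 and Col4a3 lay lower in Ttr-low cells of both mice, Efemp1 and Fbln1 lay higher, and Col18a1 was lower in R1 and higher in R2, the latter by a log2FC of 0.12 with TMM scaling.

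Among Ttr-high cells, Timp3 and the collagen genes other than Col4a5 varied less from cell to cell than the median gene. The spread between cells beyond counting error, as a coefficient of variation, was 28.1% in R1 and 30.5% in R2 for Timp3, 41.2% and 41.3% for Col8a2, and 50.7% and 50.9% for Col8a1. It was 61.9% and 75.2% for Col18a1, 70.2% and 92.4% for Col4a3, and 91.8% and 102% for Col4a4. The median of all genes found in at least 10% of cells was 110% and 122%, with lower quartiles of 76.6% and 82.2%. These genes were not matched to the members by level. The scarcer Htra1, Col4a5, Efemp1 and Fbln1 lay above the median, up to 519% and 663% for Fbln1, so abundance and evenness cannot be told apart here. For Timp3, the cell at the tenth percentile held 15.6 and 13.5 UMIs per 10000 and the cell at the ninetieth 46.4 and 43.6. Only 8 and 11 cells held no Timp3 UMI.

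Level varied with the depth of a cell in different directions. When cells were split into 3 equal groups by UMIs, Col8a1 rose with depth in both mice, from 5.10 to 5.73 in R1 and from 3.87 to 5.00 in R2. From the shallowest over the middle to the deepest group, Col8a2 was at 12.03, 10.26 and 9.01 in R1, and at 9.14, 9.19 and 8.36 in R2. Col18a1 was at 2.35, 1.89 and 1.54 in R1 and at 1.45, 1.63 and 1.24 in R2. Timp3 had no common direction, with 31.0 and 29.9 in R1 and 25.1 and 28.7 in R2. Between the shallowest and the deepest group, the levels of the collagen VIII chains thus moved in opposite directions. The fall of Col8a2 and of Col18a1 was steady over the 3 groups in R1 alone.

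Covariation among members was weak apart from a single pair. It was measured as Pearson's r of residuals from a depth model across the Ttr-high cells of each mouse (n = 2612 and n = 2828), which share a library and its free RNA. Over the 45 pairs, the median r was 0.0132 in R1 and 0.0191 in R2. Col8a2 and Timp3 had the largest r in both mice, 0.259 and 0.238. In R1, r reached 0.210 for Col8a2 with Col18a1 and 0.109 for Col4a3 with Timp3, against 0.0565 and 0.0584 in R2. No other pair passed 0.1 in either mouse, and no pair fell below -0.1. Col4a3 and Col4a4, which share the 71 bases between their starts, had r of 0.0817 and 0.0560, and the collagen VIII chains 0.0014 and 0.0239. In sparse counts such small values carry no finding.

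The genes most like Col8a2 over these cells, among 5013 compared, were Timp3, mt-Cytb (0.312 and 0.230) and mt-Nd1 (0.252 and 0.230), the latter pair being mitochondrial messages. Timp3 was most like Col8a2, Malat1 (0.278 and 0.234), a nuclear noncoding RNA, and mt-Nd1 (0.229 and 0.196). For Col18a1 they were mt-Cytb, mt-Nd1 and mt-Nd4, for Col4a4 mt-Cytb, mt-Nd1 and mt-Nd2, and for Col4a3 mt-Nd2, mt-Nd1 and Col8a2. The residuals of Col8a2 had r of 0.298 and 0.235 with the mitochondrial share of the cell, and those of Timp3 0.278 and 0.200. Given mitochondrial share and depth, r of Col8a2 with Timp3 was 0.198 in R1 and 0.203 in R2. Col8a1 had another company, Trf (0.154 and 0.130), which encodes transferrin, Enpp2 (0.129 and 0.150), the gene of autotaxin, and Atp5b (0.103 in each mouse). Chosen after the values were seen, the most negative r was with Rgr, an RPE opsin gene, for Col8a2 (-0.247 and -0.191), Col18a1, Col4a3 and Col4a4, with Ptgds for Timp3 (-0.234 and -0.195), and with Ttr for Col8a1 (-0.107 and -0.135). The like genes of Htra1 (Pltp, Ctsd, Tcp1), Efemp1 (Gpnmb, Peg3, Slc25a5), Fbln1 (Tmcc3, Brwd1, Bcar3) and Col4a5 (Srpk1, Hagh, Ube4b) had r of 0.125 or less.

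**Figure D2:**
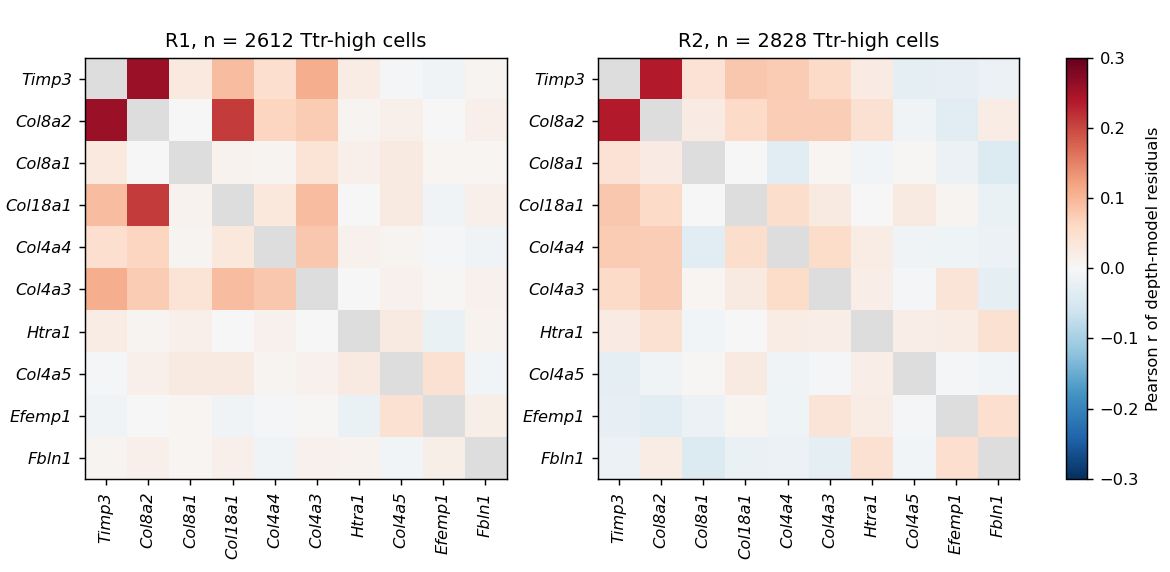
Pearson's r of depth-model residuals (colour, from -0.3 in blue to 0.3 in red) between members on both axes across Ttr-high cells of R1 (left) and R2 (right); the grey diagonal was not computed. The pair of Col8a2 and Timp3 was the darkest cell in both panels, with 0.259 and 0.238.

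The question of the next comparison was how these messages differ in the cells of the same eyes that hold little Ttr. UMIs were summed per mouse and class, and the 4 sums were tested with edgeR's quasi-likelihood test with the mouse as a block. All 10 members passed the filter on low counts. Of the 11489 genes tested, 716 (6.23%) were lower and 486 (4.23%) higher in Ttr-low cells at an adjusted p under 0.05, and the median log2 fold change (log2FC) of all genes was -0.34. Of the 10 members, 5 were lower (Col8a2, Col4a3, Col8a1, Col4a4, Timp3), 2 were higher (Fbln1, Efemp1) and 3 did not pass (Col4a5, Htra1, Col18a1). The median log2FC of the members was -1.67. Levels, and ratios or percents of the Ttr-high level, are per UMI total, while each log2FC carries TMM scaling. The TMM factors were 1.21 and 1.38 for the Ttr-low sums and 0.799 and 0.747 for the Ttr-high sums. This sets log2FC lower than such ratios alone would. Without TMM scaling, 387 genes were lower and 1067 higher with a median of 0.37, and with DESeq2 427 were lower and 506 higher, but the 5 lower members and the 2 higher ones passed in each. R1 and R2 are separate animals, but the paired fit left 1 residual degree of freedom. The p-values therefore rest largely on the count model and on a spread estimated over all genes tested. They do not measure how far a single gene differed between the 2 mice.

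The collagen VIII genes fell to a few UMIs. Col8a2 fell from 23452 UMIs in the Ttr-high cells of R1 to 8 in its Ttr-low cells, which is 4.22% (1.82 to 8.31) of the Ttr-high level, and from 23334 to 1 in R2, 1.26% (0.0320 to 7.05). Its log2FC was -5.67 ± 0.51 (SE, adjusted p = 2.38e-26). Col8a1 was at 11 and 2 UMIs, 10.2% (5.11 to 18.3) and 4.67% (0.565 to 16.9) of the Ttr-high level, with a log2FC of -4.30 ± 0.48 (adjusted p = 2.07e-17). For comparison, the 8 RPE markers were at a median of 7.77% (0 to 12.7) and 3.97% (0 to 12.6). The 0 is that of Best1, whose 7 and 11 Ttr-high UMIs were too few to measure a change. Ttr was at 6.49% and 3.12%, but it set the classes, so its fall is no benchmark. The Ttr-low cells marked as microglia, which should not make these collagens, numbered 3 with a median of 2692.5 UMIs in R1 and 2968 in R2. There 1 of 2 cells held a Col8a2 UMI in R1 and 0 of 1 in R2, and Ttr stood at 141 and 37.1 UMIs per 10000. Timp3, Efemp1 and Fbln1 had 0 UMIs in these 3 cells. A Col8a2 UMI was found in 8 of 59 and 1 of 19 Ttr-low cells, and with so few microglia-marked cells expression and free RNA cannot be told apart at that level.

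The collagen IV pair fell too. Col4a3 had 1 UMI in Ttr-low cells of R1, 4.72% (0.119 to 26.3) of the Ttr-high level, and 0 in R2. Against a floor of 3 UMIs per library, it was at least 2.46-fold lower in R2. Its adjusted p was 1.01e-07. Col4a4 had 3 UMIs in R1, 14.2% (2.94 to 41.7), and 0 in R2, where it was at least 2.77-fold lower, with an adjusted p of 1.39e-06. A count of 0 among the 19 cells allows a share of up to 15.8% of cells with a UMI (3 counts of the total), which does not limit the share that express the gene.

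Timp3 fell less in these sums. The Ttr-low cells of R1 held 145 UMIs, or 7.54 per 10000, and those of R2 90, or 9.88. This was 25.1% (21.2 to 29.5) and 34.7% (27.9 to 42.7) of the Ttr-high level. In each mouse it was above the share that any of the 8 RPE markers kept, of which Best1 was too scarce to measure. The log2FC was -2.51 ± 0.39 (adjusted p = 1.02e-08). At an equal 2000 UMIs per cell, Timp3 was found in 67.8% and 63.2% of Ttr-low cells against 98.7% and 98.2% of Ttr-high cells.

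Efemp1 and Fbln1 changed in the other direction by 2 orders of magnitude or more. The 59 Ttr-low cells of R1 held 87 UMIs of Efemp1 and its 2612 Ttr-high cells 81, a level 133 times as high (96.9 to 182), and 46 against 64 UMIs in R2, 212 times as high (142 to 315). The log2FC was 6.63 ± 0.46 (adjusted p = 5.93e-44). Fbln1 had 62 against 21 UMIs in R1, 365 times the Ttr-high level (219 to 630), and 133 against 35 in R2, 1121 times (768 to 1677), with a log2FC of 8.64 ± 0.48 (adjusted p = 2.24e-68). The ratio of Fbln1 in R2 depended on the depth of the Ttr-high cells. There Fbln1 stood at 0.0569 (0.0343 to 0.0889) in the shallowest group by UMIs and at 0.00493 (0.00213 to 0.00971) in the deepest. Ttr-low cells were shallow, and with Ttr-high cells limited to those below the median depth, the log2FC of Fbln1 was 7.745. In the Ttr-low cells the level of Fbln1 was 3.22 in R1 and 14.6 in R2, while that of Efemp1 was 4.52 and 5.05. The Fbln1 UMIs came from 11 and 7 cells, too few to measure a difference between the mice. Both genes were found in fibroblast-marked Ttr-low cells as well, Fbln1 in 3 of 3 and 1 of 2 cells and Efemp1 in 3 of 3 and 0 of 2.

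The remaining members did not pass. Htra1 had 16 and 15 UMIs in Ttr-low cells, 3.19 times (1.81 to 5.22) and 5.22 times (2.91 to 8.66) the Ttr-high level, with a log2FC of 1.28 ± 0.54 and an adjusted p of 0.127. Col4a5 had 11 and 5 UMIs, 7.95 and 9.97 times the Ttr-high level, with a log2FC of 2.41 ± 0.87 and an adjusted p of 0.0545. Of the 5 UMIs in R2, 4 came from 1 cell, and without it the level in the Pax6 and Dkk3 cells of R2 was 0.146 per 10000. Col4a5 passed with DESeq2 (adjusted p = 0.0490) and with all deposited cells (adjusted p = 0.0272). Without TMM scaling both Htra1 and Col4a5 passed (adjusted p = 0.00198 and 0.00812). Col18a1 went in opposite directions per UMI total: its 14 UMIs in R1 were 41.0% (22.4 to 68.8) of the Ttr-high level and its 25 UMIs in R2 200% (129 to 296), with an adjusted p of 0.249. With the TMM scaling of the test, the log2FC was 0.12 in R2 alone and -1.89 in R1 alone, and 10 of the 25 UMIs came from 1 cell.

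**Figure D3:**
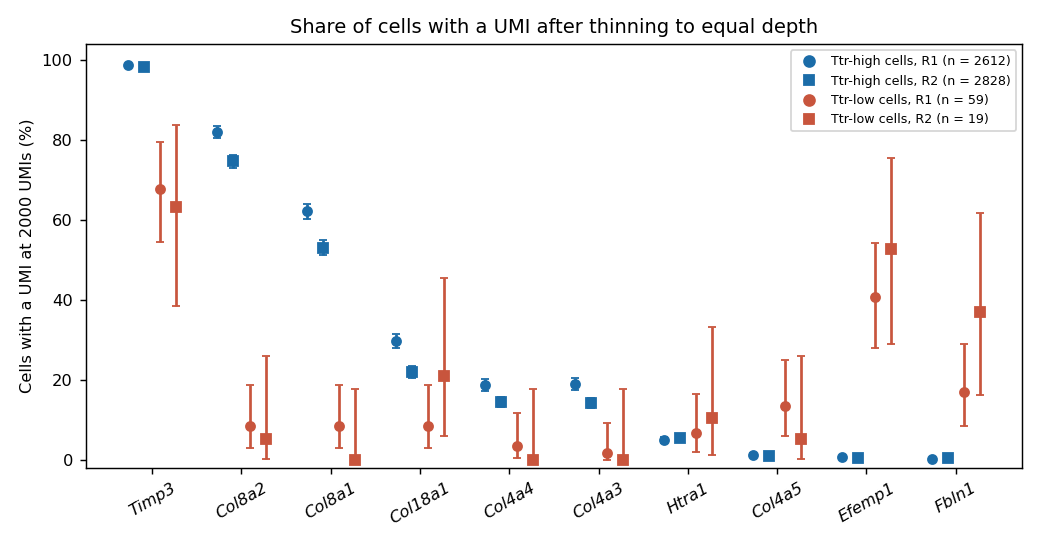
Percent of cells with at least 1 UMI of each member after every cell was thinned to 2000 UMIs, in Ttr-high (blue) and Ttr-low (red) cells of R1 (circles) and R2 (squares), with exact 95% Clopper-Pearson intervals. Col8a2 was in 81.9% and 74.6% of Ttr-high cells and in 8.47% and 5.26% of Ttr-low cells, while Efemp1 was in 0.574% and 0.354% against 40.7% and 52.6%.

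All 7 genes of a marker list (Pax6, Dkk3, Aldoc and the melanogenesis genes Mlana, Dct, Trpm1 and Gpnmb) were higher in the Ttr-low class. Together they made 268.1 and 179.2 UMIs per 10000 against 13.6 and 9.54 in Ttr-high cells. The study named them as raised in a cluster of the same data, so this is a description. Of other types, 0 of 2 endothelial, 1 of 4 pericyte and 0 of 3 choroidal melanocyte markers were higher, against 4.23% of all genes. No rod marker was tested. Fibroblast and microglia markers moved with the Ttr-low class. All 6 fibroblast markers tested and all 6 microglia markers tested were higher there, and the 7 fibroblast markers together made 31.5 and 22.0 UMIs per 10000 against 0.0223 and 0.0889 in Ttr-high cells. The Ttr-low cells with Pax6 and Dkk3, 51 and 16 in number, had nearly none of this: 6 of 7 fibroblast markers (Dcn, Lum, Dpt, Pdgfra, Col1a1 and Col3a1) and 8 of 8 microglia markers were at 0 UMIs there in both mice. The median mitochondrial share of the whole Ttr-low class was 2.57% and 3.35% against 1.29% and 1.26% in Ttr-high cells. In the whole class 3 of 7 dissociation response genes were higher. Together the 7 made 4.37 and 13.8 UMIs per 10000 there, 1.96 and 1.09 in its Pax6 and Dkk3 cells, and 0.636 and 2.08 in Ttr-high cells. The part of either in the differences was not tested. With the low class limited to the Pax6 and Dkk3 cells, 624 of 11379 genes (5.48%) were lower and 332 (2.92%) higher, and the same 5 and 2 members passed. Efemp1 was found in 29 of 51 and 11 of 16 of these cells, Timp3 in 43 of 51 and 15 of 16, and Fbln1 in 8 of 51 and 6 of 16. In the Ttr-high cells that met the limit on Pax6 and Dkk3, Col8a2 stood at 10.55 and 9.65 UMIs per 10000 and Efemp1 at 0.135 and 0.0134.

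**Figure D4:**
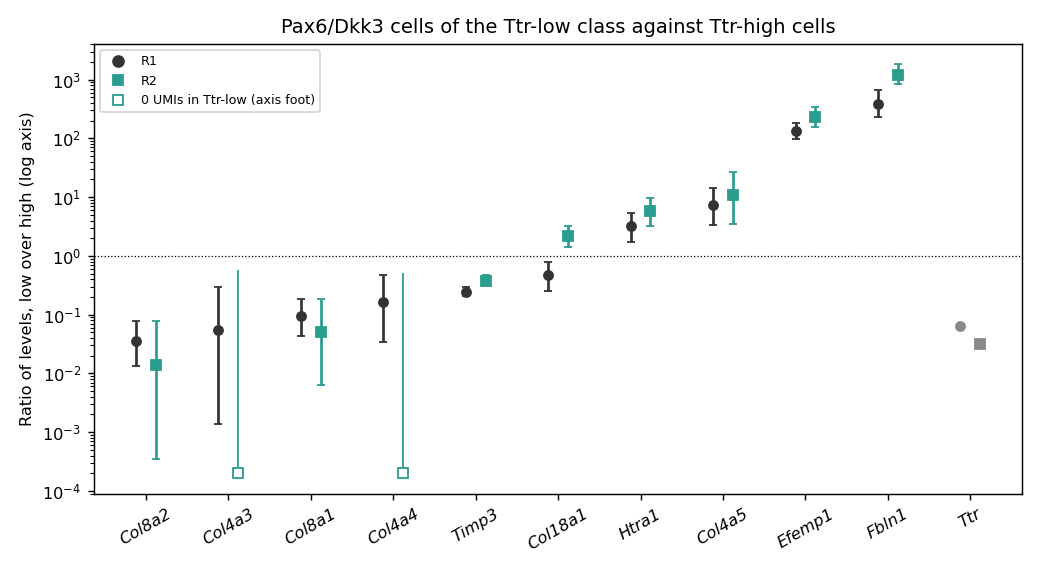
Ratio of the level in Ttr-low cells with Pax6 and Dkk3 to the level in Ttr-high cells (vertical log axis, 1 dotted) for each member and for Ttr, in R1 (circles) and R2 (squares), with 95% counting intervals; open squares mark 0 UMIs. Col8a2 and Col8a1 lay below 0.1, Timp3 at 24.6% and 38.0% of the Ttr-high level, and Efemp1 and Fbln1 above 100.

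Fbln1 was not spread over the Pax6 and Dkk3 cells but held by few of them, and Htra1 and Col18a1 went with it. This split was made on Fbln1 after its values were seen and is a description without a test. The 8 cells of R1 with Fbln1 held 13 of the 14 Htra1 UMIs, 13 of the 14 Col18a1 UMIs and 75 of the 76 UMIs of Mfap4, which encodes a glycoprotein of elastic fibres. The 6 cells of R2 held all 15 Htra1, all 25 Col18a1 and all 150 Mfap4 UMIs. Mfap2, another microfibril gene that was singled out after its values were seen, had 44 of its 46 UMIs in R1, and all 32 in R2, within the cells with Fbln1. Single deep cells gave much of this. In R2 the cell with the most Fbln1, of 10880 UMIs, held 8 of the Htra1 and 10 of the Col18a1 UMIs. In R1 the one of 6628 UMIs held 4 of the Col18a1 UMIs. Of the cells with Fbln1, 4 and 5 held Htra1 and 5 and 6 held Col18a1.

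In the cells with Fbln1, Col18a1 stood at 4.21 (2.24 to 7.20) and 5.41 (3.50 to 7.98) UMIs per 10000, above its 1.78 and 1.37 in Ttr-high cells of the same mouse, and in the cells without Fbln1 at 0.0729 (0.00185 to 0.406) and 0. Htra1 stood at 4.21 and 3.24 with Fbln1 and at 0.0729 and 0 without. Cells with Fbln1 made up 15.7% of the Pax6 and Dkk3 cells in R1 and 37.5% in R2. Any bearing of this share on Col18a1 in the whole class was not tested. Efemp1 was on both sides of the split. It was found in 25 of 43 and 7 of 10 cells without Fbln1, at 5.18 (4.04 to 6.53) and 5.54 (3.38 to 8.56), and in 4 of 8 and 4 of 6 cells with Fbln1, at 1.62 (0.525 to 3.78) and 5.62 (3.67 to 8.24). Timp3 was at 12.9 and 11.5 with Fbln1 and at 6.13 and 9.97 without. The median depth of cells with Fbln1 was 3610.5 UMIs in R1, where cells without it had 3206. It was 6792.5 in R2, where the others had 3560. Depth and the presence of Fbln1 cannot be told apart in R2 at these numbers.

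**Figure D5:**
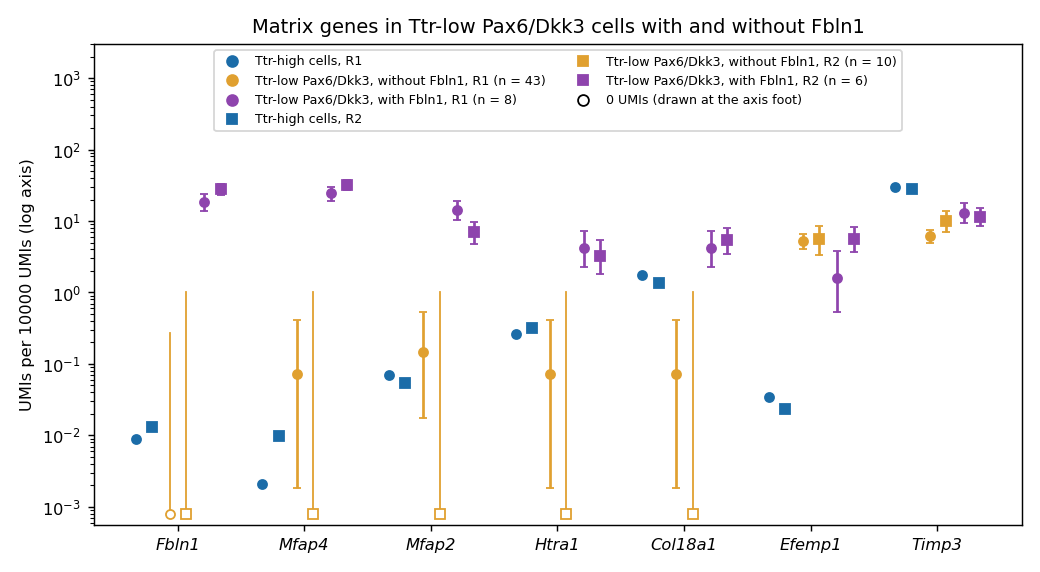
UMIs per 10000 UMIs (vertical log axis) of 5 members and of Mfap4 and Mfap2 in Ttr-high cells (blue) and in Ttr-low Pax6 and Dkk3 cells without (orange) and with (purple) a Fbln1 UMI, in R1 (circles) and R2 (squares), with exact 95% Poisson intervals for the Ttr-low cells; open symbols mark 0 UMIs. Htra1 and Col18a1 lay above the Ttr-high level with Fbln1 and at 1 or 0 UMIs without, whereas Efemp1 was present on both sides.

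The other matrix genes, in lists drawn up with earlier results of these data known, showed where the members stand. Of all genes tested, 6.23% were lower and 4.23% higher, or 5.48% and 2.92% with the Pax6 and Dkk3 cells. Counts near these shares say nothing particular about a list. The Ttr-low sums held only 192400 UMIs in R1 and 91115 in R2. A gene scarce in Ttr-high cells could hardly be called lower in them, which limits every count of lower genes in these lists. Such a gene passed the filter on low counts only through UMIs in the Ttr-low sums. Nid1, for example, had 2 and 1 UMIs in Ttr-high cells and 13 and 1 in Ttr-low cells. The filter thus favours higher calls and positive medians, and these counts and medians describe only the genes tested. Of the 24 basement membrane genes, none averaged 1 UMI per 10000 in Ttr-high cells. Nid2, which encodes a nidogen that links laminin to collagen IV, came nearest at 1.07 and 0.909, followed by Lamb1 and Frem1, and none of the list was lower in Ttr-low cells. Of the 14 tested, 4 were higher (median log2FC of the list 1.93), the largest called changes being those of Nid1, Col4a6 and Col4a1. In the Pax6 and Dkk3 cells the median was 1.05 and 1 of 13 passed, Col4a6, the other chain gene that pairs with Col4a5, with 12 and 1 UMIs in Ttr-low cells against 11 and 3 in Ttr-high cells.

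Elastic layer genes counted 14 tested, of which 6 were higher and none lower, with a median of 1.60. Loxl1, an elastin crosslinking enzyme, was the most abundant in Ttr-high cells (1.14 and 1.17) and did not pass (log2FC -0.55, adjusted p = 0.580). Mfap4 had 112 and 150 UMIs in Ttr-low cells against 5 and 26 in Ttr-high cells (log2FC 10.15 ± 0.50, adjusted p = 9.04e-85), and Ltbp1, which encodes a binder of latent TGF-beta, 20 and 9 against 21 and 5 (log2FC 6.99 ± 1.08, adjusted p = 4.73e-09). Eln, the elastin gene, also passed, with 11 UMIs in Ttr-low cells of R1, all outside the Pax6 and Dkk3 cells, and 3 in R2, all within them. In those cells 3 of 13 passed, Ltbp1, Mfap2 and Mfap4, and the median of the list was 0.18.

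Interstitial collagens and proteoglycans gave 8 higher of 10 tested and none lower, with a median of 6.93. Among the 8, Dcn, Lum, Col1a1, Col1a2 and Col3a1 are also fibroblast markers counted above, so this count largely repeats that one. Lum, Col1a1 and Col3a1 had the largest called changes and were at 0 UMIs in the Pax6 and Dkk3 cells of both mice. In these cells 2 of 6 passed, Bgn and Vcan, and the median was 2.13.

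Of 10 other matrix glycoproteins tested, 2 were lower and 3 higher. Sparc, which encodes a collagen-binding protein, had 3.20 and 2.87 UMIs per 10000 in Ttr-high cells and 20.2 and 24.3 in Ttr-low cells (log2FC 2.13 ± 0.35, adjusted p = 5.99e-08). Vtn, the vitronectin gene, had 730 and 785 UMIs in Ttr-high cells and 0 in both Ttr-low sums, where 3 UMIs would make it at least 1.97-fold lower in R1 and would set no bound in R2 (adjusted p = 0.00350). Thbs1 had 12 and 0 UMIs against 4740 and 4730 (log2FC -3.06 ± 0.52, adjusted p = 1.29e-07). The median of the list was -0.85, and 0.32 with genes at 0 set to their bound. In the Pax6 and Dkk3 cells 2 were lower and 2 higher, with a median of -1.23. There genes at 0 UMIs in both mice, Vtn among them, were not set to a bound, so the sign of this median is not informative.

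Among collagen folding and modification enzymes, 2 of 14 were higher (P4ha2 and Colgalt2), none lower, and the median was 0.61, or 0.30 in the Pax6 and Dkk3 cells with the same counts. Ppib, a prolyl isomerase, and Serpinh1, the collagen chaperone HSP47, had 3.49 and 2.34 UMIs per 10000 in Ttr-high cells of R1 and did not pass (adjusted p = 0.926 and 0.303). Matrix turnover genes had 8 of 19 higher and none lower, with a median of 2.23. In the Pax6 and Dkk3 cells 5 of 17 were higher, with a median of 0.89, and Mmp2, a gelatinase gene that was among the 8, was at 0 UMIs in both mice. Timp2, the relative of Timp3, was at 2.28 and 2.05 in Ttr-high cells and 3.85 and 2.63 in Ttr-low cells and did not pass (adjusted p = 0.890). Pcolce, which encodes an enhancer of procollagen processing, was the most abundant of this list at 4.64 and 4.67 and did not pass either.

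Of 18 matrix receptors tested, 3 were lower and 1 higher (median log2FC 0.13). The count of 1 higher is near the share of all genes (4.23%). Itgb8 had 15154 and 16482 UMIs in Ttr-high cells and 8 and 2 in Ttr-low cells (log2FC -4.90 ± 0.49, adjusted p = 4.53e-21). Itgav, whose product pairs with the one of Itgb8 in an integrin, had 6727 and 7540 against 10 and 4 (log2FC -3.24 ± 0.47, adjusted p = 5.36e-10). Itga3 was the other, with 692 and 664 against 1 and 0 UMIs (adjusted p = 0.0394), and it did not pass in the Pax6 and Dkk3 cells, where 2 of 18 were lower, 1 was higher and the median was 0.28.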

How the data were processed

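The authors made the libraries with 10x Genomics 3′ reagents, processed the reads with bcl2fastq 2.20.0.422 and Cell Ranger 1.2.0 on GRCm38 (mm10), per the submitters' processing notes, and deposited, mouse by mouse, the UMI counts of every gene in each called cell. These counts are whole numbers without normalization, over 27998 genes, with 2844 cells and 26034378 UMIs in R1 and 2994 cells and 29732969 UMIs in R2.

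Kept cells had at least 500 genes and at most 5% of UMIs from mitochondrial genes, and also left out were the 4% with the highest doublet score (25% artificial doublets, 10 principal components, nearest 1% of profiles), which stood in for DoubletFinder. Free RNA was not removed. Counts were summed over Ttr-high and Ttr-low cells of each mouse and tested with edgeR 4.0.16 in R 4.3.3 (TMM, filterByExpr, quasi-likelihood test, mouse as block, which leaves 1 residual degree of freedom before moderation, Benjamini-Hochberg adjustment, limit 0.05). Both classes of a mouse come from the same animal, so the sums are paired. Ttr set the classes and was not tested. DESeq2 1.42.0 and the other alternatives are given at the end. Correlations used Pearson residuals of a depth model with an overdispersion parameter of 100 and carry no p, since cells are not replicates. Thinning drew 2000 UMIs from every cell. Cells marked as another type held UMIs of 2 or more of its markers, and Pax6 and Dkk3 cells held 2 or more UMIs of this pair together. Sequences came from the RefSeq promoter table and gene positions from GENCODE vM21; Col4a3 is not in that promoter table.

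All members are named. From each list of other matrix genes, the 3 with the highest level in Ttr-high cells and the called genes among the 3 largest fold changes could be named, and for likeness the 3 genes with the highest lower r of the mice, among genes in at least 10% of Ttr-high cells. The members, lists and limits were chosen with earlier results of these data known. Genes named beyond this rule (Mfap2, Vcan and the genes of the most negative r) were named after their values were seen. The values of 1 gene of the turnover list are not reported here.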

Additional observations from a re-analysis of the deposited data

How the results depend on the processing

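In all 14 alternatives that kept both mice (other normalizations, filters, class limits, doublets, depth, free RNA, cells of other types), the 5 lower and 2 higher members kept their direction and their call. The log2FC of Col8a2 ranged from -5.83 to -4.95 apart from -16.47 with 5% free RNA subtracted, a fitted value that depends on the prior count since nearly no Ttr-low UMI is left, and its adjusted p reached at most 4.35e-16. That of Timp3 ranged from -2.81 to -1.77 and that of Efemp1 from 6.54 to 7.37. For Fbln1 the range was 7.745 to 9.428, lowest with Ttr-high limited to shallow cells. Both classes without cells marked as other types, and correlations without such cells or given mitochondrial share, were chosen after seeing the data.

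The counts of genes depended on the scaling. With DESeq2, 427 genes were lower. Without TMM, 387 were lower and 1067 higher, and 4 members were higher (Col4a5 and Htra1 added). With no replicate block, so that the pairing by mouse was ignored, 1282 genes were lower and 966 higher, 4 members were higher, and Col18a1 also passed at a log2FC of -0.84 (adjusted p = 0.0461). Over the alternatives, the adjusted p of Col4a5 ranged from 0.000268 to 0.125, that of Htra1 from 0.00198 to 0.209 and that of Col18a1 from 0.0461 to 0.922. Col18a1 was 0.12 on the log2 scale without replicate 1 and -1.89 without replicate 2. The cause was not tested.

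The r and shares in this paragraph are means of the 2 mice unless a mouse is named. The median r of the 45 pairs was 0.0230 on a log2 scale, 0.0103 as Spearman's correlation after thinning, and 0.0102 and 0.0060 in the middle and deepest groups of cells. For Col8a2 with Timp3, r was 0.129 after thinning and from 0.212 to 0.267 in the 3 depth groups. In the shallowest group the largest r of any pair was 0.303 in R1 but 0.121 in R2, so this pair was at most 0.121 in R2. Shares of cells moved most, since they follow depth: at 2000 UMIs Col8a1 was found in 57.6% of Ttr-high cells and Col4a3 in 16.5%. With 59 and 19 Ttr-low cells, members at a few UMIs have intervals that span an order of magnitude, and the mice give only 2 independent values.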
